A study of Mus musculus with 8 samples.

Results

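Genes of the WNT pathway were examined in mammary glands of virgin female mice in which Cre recombinase could remove both copies of Sox9, or just 1 of them, from the mammary epithelium. The 48 genes were chosen by name as secreted WNT ligands, their receptors and co-receptors, the R-spondin receptor system, secreted or membrane-bound inhibitors, and the transcription factors and feedback targets downstream. Each was read from the probe set that the platform annotation pairs with exactly 1 gene symbol, and where a gene had several, from the brightest on average. This gave values for 47 of the 48 genes, out of 19938 genes in the whole table. Tcf7, a T cell factor of the pathway, was not analysed here because no probe set was paired with it alone.

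All 8 mice were 5 weeks old, of mixed C57BL/6 X FVB strain, untreated, and carried MMTV-Cre, a transgene in which the promoter of a mouse mammary tumour virus drives the recombinase. In 4 mice both Sox9 alleles were floxed (MMTV-Cre;Sox9 flox/flox), and the other 4, the controls, had a floxed and a wild-type allele (MMTV-Cre;Sox9 flox/+), so that the controls too could lose a Sox9 copy where Cre was active. RNA came from the piece of the fourth gland near the lymph nodes, 1 gland per mouse, and was hybridised to Affymetrix Gene 1.0 ST arrays, 1 per gland. MMTV-driven Cre acts mainly in epithelium, whereas the tissue also held fat, stroma, vessels and immune cells, so expression from all of these was summed.

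WNT proteins are secreted lipid-modified ligands that bind Frizzled receptors together with LRP5 or LRP6, which stabilises beta-catenin and lets it switch on genes with TCF and LEF factors at the DNA; other ligands act through ROR and RYK receptors without beta-catenin. R-spondins strengthen the signal by binding LGR receptors and removing the ubiquitin ligases RNF43 and ZNRF3, which otherwise clear Frizzled from the cell surface. In the mammary gland the pathway is known for bud formation in the embryo, side branching under progesterone and the upkeep of basal stem cells. SOX9 is known in the mouse intestine as a target of this pathway, and in mouse cartilage as a factor that promotes the breakdown of beta-catenin.

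Sox9 itself (probe set 10382328, chromosome 11) had intensities of 298, 356, 287 and 351 in flox/flox glands, against 424, 448, 401 and 366 in flox/+ glands. Every flox/flox gland lay below the lowest flox/+ gland. The log2 difference, flox/flox minus flox/+ here and throughout, was -0.33 ± 0.09 (SE), with p = 0.0286 in a 2-sided exact permutation test, the smallest p that 4 against 4 arrays allow. In the limma fit over all genes Sox9 did not pass, with an adjusted p of 0.256. With the deposited values not normalized further the difference was -0.29 and the same exact permutation test gave p = 0.0857. Which part of the gene is deleted is not given in the sources used here, so the probes may lie outside it. Since whole tissue was measured, fewer cells of a type and less RNA per cell cannot be told apart, for Sox9 and for every gene below. The deposited array medians lay between 159 and 178, and limma called 8 of all genes (0.0401%) at an adjusted p under 0.05, 6 of them higher (0.0301%) and 2 lower (0.01%).

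None of the 47 WNT pathway genes passed that test. At an unadjusted limma p under 0.05 there were 6 members (12.8%), against 10.3% of all genes, so the share of members was near the background. Of these, 4 had negative differences (8.51% of members, against 5.46% of all genes) and 2 positive ones (4.26%, against 4.81%). Flox/flox and flox/+ values were fully apart for 2 members (4.26%), both lower in flox/flox, against 5.9% of all genes, 3.16% lower and 2.74% higher. With the deposited values not normalized further there were 5, with Lef1 (lower) and Tcf7l1 and Tcf7l2 (both higher) beside Fzd8 and Apcdd1. Differences were negative for 25 members (53.2%, against 52.6% of all genes) and positive for 22, with a median of -0.02 against -0.01 over all genes tested.

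The intervals also bound the differences of the whole-tissue values, though not changes in the epithelium alone. For 42 of the 47 members (89.4%) the 95% interval of the log2 difference lay within a factor of 1.5 in either direction, as it did for 95.5% of all genes. The 5 members with wider reach were Lgr5, Wif1, Sfrp2, Sfrp4 and Apcdd1. For all 47 members the interval stayed within a factor of 2. No detection calls came with the arrays, and 8 members (Wnt2b, Rspo2, Rspo3, Sfrp5, Dkk2, Notum, Nkd2 and Sp5) belonged to the dimmest 1 in 3 genes, which are called dim here; how far these or other values stand above background is not known.

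**Figure D1:**
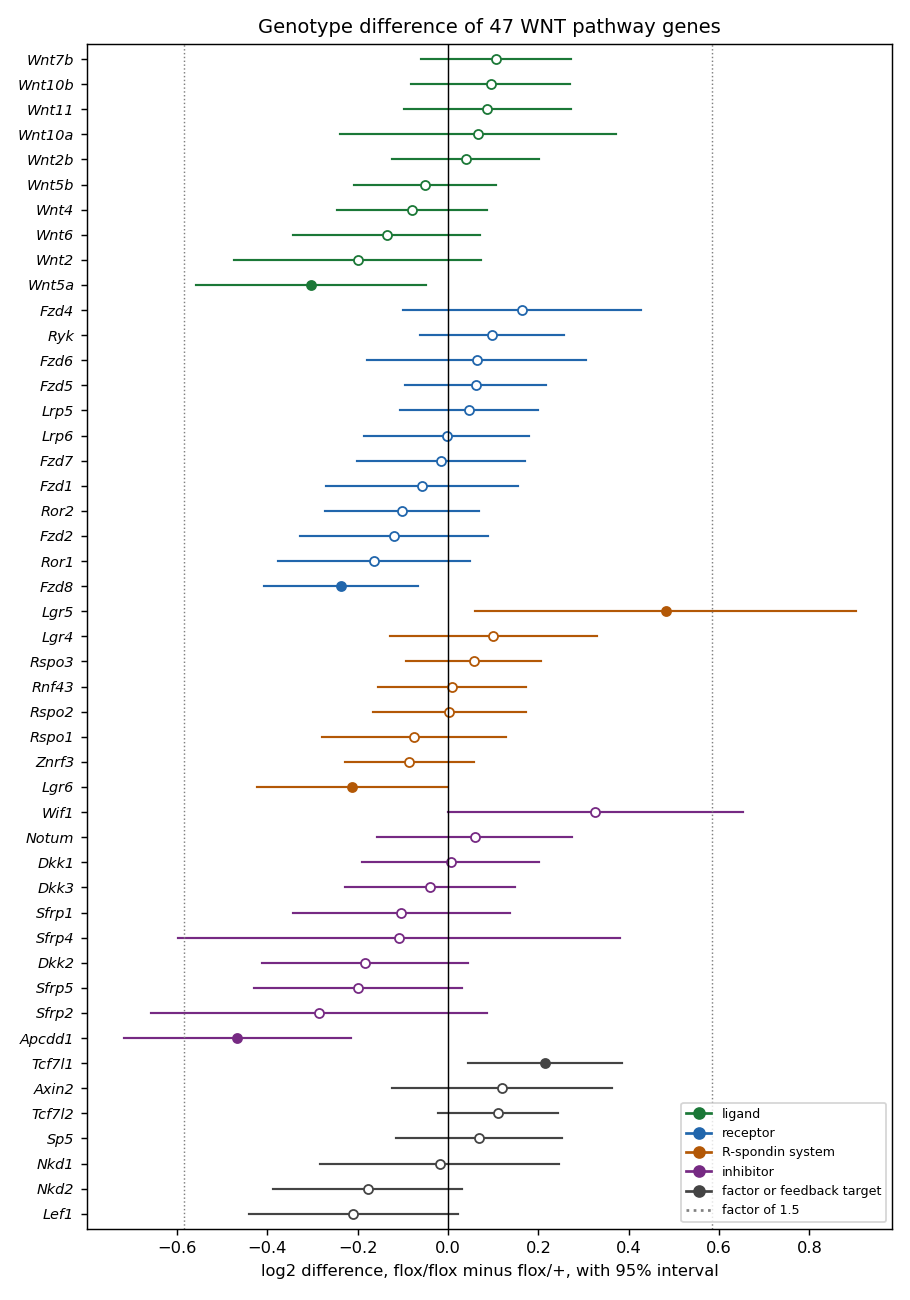
Log2 difference between flox/flox and flox/+ glands (x axis, with 95% interval from limma) for 47 WNT pathway genes (y axis), grouped and coloured by role. Filled points have an unadjusted p under 0.05 (6 genes), open points do not, and dotted lines mark a factor of 1.5; 42 intervals stay between them.

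**Figure D2:**
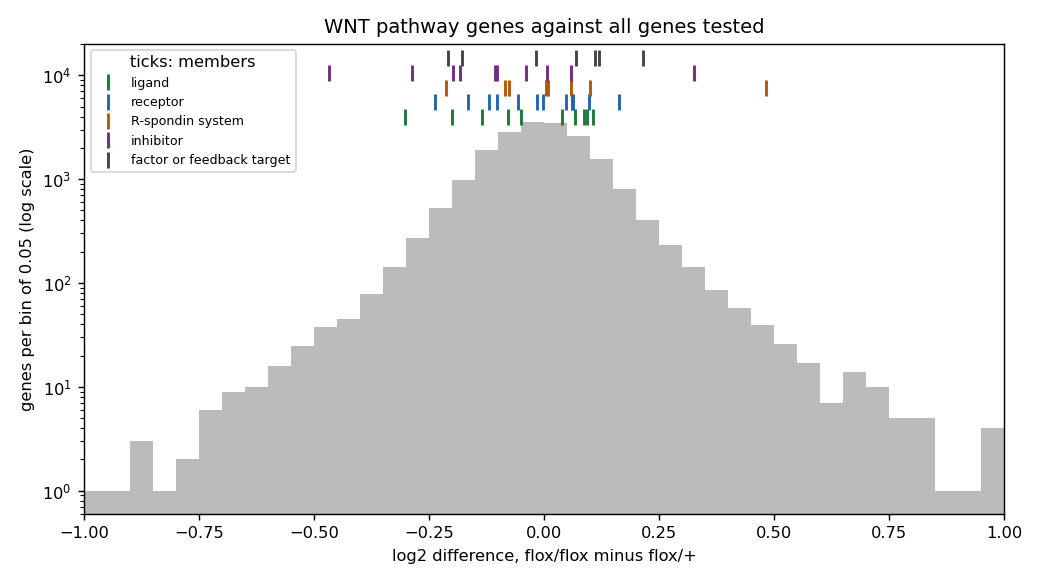
Histogram of the log2 difference of all genes tested (x axis, bins of 0.05; y axis, genes per bin on a log scale), with members as ticks above it, in rows by role from ligands at the bottom to factors and feedback targets at the top. Members lie between -0.47 (Apcdd1) and 0.48 (Lgr5); genes beyond 1 in either direction are not drawn.

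Among the 10 ligands measured, 5 had positive and 5 negative differences, with a median of -0.01. Wnt5a was the ligand with the most negative difference. Wnt5a signals mostly without beta-catenin and is known in the mouse mammary gland as a brake on duct branching. It read 253, 312, 347 and 274 in flox/flox glands, against 359, 305, 417 and 396 in flox/+ glands (probe set 10413482, chromosome 14). The genotypes overlapped, because flox/+ replicate 2 lay below 2 of the flox/flox glands. The log2 difference was -0.30 ± 0.12 (SE, 95% interval -0.56 to -0.05), and limma's adjusted p was 0.406.

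Wnt4, the ligand that progesterone-responsive luminal cells release during side branching, showed no such spread between genotypes. It had intensities of 426, 355, 386 and 414 in flox/flox glands, against 434, 419, 387 and 432 in flox/+ glands, and the log2 difference was -0.08 (95% interval -0.25 to 0.09). A dimmer second probe set of Wnt4 gave a difference of 0.01. Wnt10b, an early marker of the embryonic mammary line, read 247, 221, 241 and 229 in flox/flox glands, against 197, 224, 249 and 206 in flox/+ glands. Its values overlapped, with a difference of 0.09 (95% interval -0.08 to 0.27).

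The other ligands lay between -0.20 and 0.11. The negative side held Wnt2 (-0.20), a ligand of the stroma in the mouse gland, Wnt6 (-0.14) and Wnt5b (-0.05), a close relative of Wnt5a. On the positive side were Wnt2b (0.04), Wnt10a (0.07), Wnt11 (0.09) and Wnt7b (0.11). Wnt10a varied most among the ligands, with an SD of 0.24 within genotypes on the log2 scale, between 135 in flox/+ replicate 1 and 239 in flox/+ replicate 4.

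**Figure D3:**
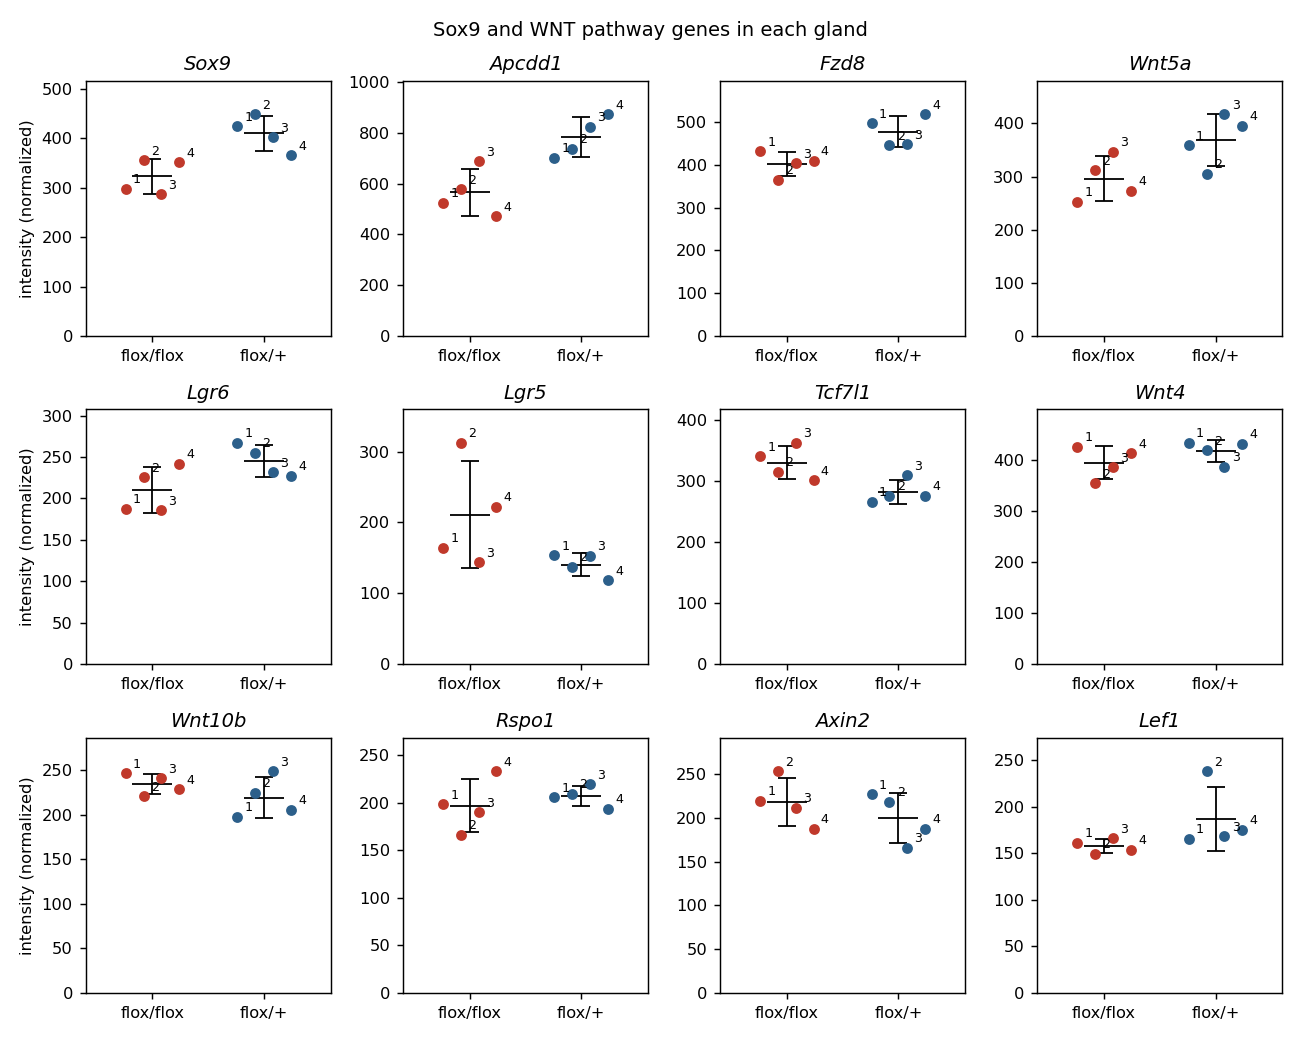
Normalized intensity (y axis, from 0) of Sox9 and 11 WNT pathway genes in each gland, flox/flox at left and flox/+ at right of each panel; numbers are replicates, long bars are means and whiskers SD (n = 4 per genotype). Sox9, Apcdd1 and Fzd8 show no overlap between the genotypes, and the other 9 panels do.

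Of the 12 receptors and co-receptors, 5 had positive and 7 negative differences, with a median of -0.01. Fzd8, a Frizzled receptor that binds beta-catenin-dependent WNT ligands, had the smallest p of this group. Its intensities were 432, 365, 404 and 410 in flox/flox glands, against 498, 446, 449 and 518 in flox/+ glands (probe set 10453738, chromosome 18). Each flox/flox gland lay below each flox/+ gland, the gap running between 432 in flox/flox replicate 1 and 446 in flox/+ replicate 2. The log2 difference was -0.24 ± 0.08 (SE, 95% interval -0.41 to -0.07), a ratio of 0.848, with an adjusted limma p of 0.315. With median centring in place of quantile normalization the genotypes overlapped for Fzd8.

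The co-receptors of the beta-catenin branch lay close to 0, Lrp5 at 0.05 and Lrp6 at 0.00, with 95% intervals of -0.11 to 0.20 and of -0.19 to 0.18. The receptors of the branch that works without beta-catenin were Ror1 (-0.16), Ror2 (-0.10) and Ryk (0.10). Ror1, a receptor for WNT5A, read 281, 280, 362 and 365 in flox/flox glands, against 348, 353, 370 and 370 in flox/+ glands, so that flox/flox replicates 1 and 2 lay below all controls and the other two among them. The remaining Frizzled genes lay between -0.12 (Fzd2) and 0.16 (Fzd4). Fzd4, also the receptor for norrin in blood vessels, read 1652 and 1876 in flox/flox replicates 1 and 2 but 1220 and 1353 in flox/flox replicates 3 and 4, against 1312 to 1423 in flox/+ glands.

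The R-spondin system held the member with the most positive difference, Lgr5, a receptor that marks stem cells of several epithelia and is found in basal cells of the mouse mammary gland. Lgr5 read 164, 312, 144 and 222 in flox/flox glands, against 154, 137, 153 and 119 in flox/+ glands (probe set 10372503, chromosome 10). Flox/flox replicates 2 and 4 stood above all controls, replicate 1 lay just above the highest control and replicate 3 lay among them. The log2 difference was 0.48 ± 0.19 (SE, 95% interval 0.06 to 0.90), with an adjusted limma p of 0.428. Without flox/flox replicate 2 the difference was 0.28. Over the arrays left out in turn, Lgr5 kept an unadjusted p under 0.05 in 4 of 8 fits.

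Lgr6, a related R-spondin receptor known from progenitor cells of skin and mammary gland in the mouse, had the opposite sign. Its intensities were 188, 226, 186 and 242 in flox/flox glands, against 267, 255, 232 and 227 in flox/+ glands (probe set 10357965, chromosome 1). The genotypes overlapped, since flox/flox replicate 4 exceeded flox/+ replicates 3 and 4. The difference was -0.21 ± 0.10 (SE, 95% interval -0.42 to -0.00), with an adjusted limma p of 0.480.

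Of the 6 members with an unadjusted p under 0.05, windows of the promoter were at hand for Lgr6 and Tcf7l1, and that of Lgr6 is shown here because it holds the SOX letters. RefSeq promoter windows (GRCm38.p6) were searched over the 250 bases before the gene start, on both strands, for the SOX letters AACAAT and for the TCF/LEF letters CTTTGAA or CTTTGAT, and also CTTTGTA or CTTTGTT. The Lgr6 window lies at chr1:135105277-135105526 on the minus strand, and capitals mark AACAAT, which starts 63 bases before the gene start.
Lgr6: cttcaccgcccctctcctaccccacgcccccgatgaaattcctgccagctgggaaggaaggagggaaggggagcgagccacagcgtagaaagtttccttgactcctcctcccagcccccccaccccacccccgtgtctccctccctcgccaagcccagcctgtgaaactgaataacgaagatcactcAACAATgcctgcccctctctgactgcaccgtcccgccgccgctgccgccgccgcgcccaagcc
Windows were found for 30 of the 47 members. The SOX letters stood in windows of 2 of these (Lgr6 and Tcf7l2, 6.67%), against 10.9% of all 27025 genes with a window. The TCF/LEF letters stood in windows of 7 (Dkk1, Fzd7, Lef1, Sp5, Tcf7l2, Wnt11 and Wnt5b, 23.3%), against 16.8% of all genes. These letters are a description of the windows and no evidence of binding.

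The ligands and ligases of the R-spondin system lay near 0. Rspo1, a partner of Wnt4 in the hormone response of the mouse gland, read 198, 166, 190 and 233 in flox/flox glands, against 206, 209, 220 and 193 in flox/+ glands. Its difference was -0.08 (95% interval -0.28 to 0.13), with flox/flox replicates 2 and 4 below and above all controls. Rspo2 was at 0.00 and Rspo3 at 0.06, both dim. The receptor Lgr4 was at 0.10, and the ubiquitin ligases Rnf43 and Znrf3 at 0.01 and -0.09.

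Of the 10 inhibitors, 7 had negative and 3 positive differences, with a median of -0.11, where 52.6% of all genes had negative ones. Apcdd1, a membrane protein that binds WNT and LRP5 and blocks the signal, had the smallest p of all members. It read 525, 577, 689 and 472 in flox/flox glands, against 702, 737, 824 and 873 in flox/+ glands (probe set 10456184, chromosome 18). Every flox/flox gland lay below every flox/+ gland, with flox/flox replicate 3 and flox/+ replicate 1 the closest pair. The log2 difference was -0.47 ± 0.11 (SE, 95% interval -0.72 to -0.22), a ratio of 0.723, with an adjusted limma p of 0.214. With arrays left out in turn it ran between -0.56 and -0.39, with an unadjusted p under 0.05 in 8 of 8 fits and an adjusted p between 0.0857 and 0.416 over all alternatives.

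Wif1, a secreted protein that traps WNT ligands, was the inhibitor with the most positive difference. It read 183, 264, 212 and 298 in flox/flox glands, against 216, 197, 147 and 185 in flox/+ glands, a log2 difference of 0.33 (95% interval -0.00 to 0.65). Flox/flox replicates 2 and 4 lay above all controls, as they did for Lgr5.

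The secreted Frizzled-related proteins, which bind WNT ligands outside the cell, had negative differences in all 4 cases without passing the test. Sfrp2 had intensities of 571, 498, 885 and 653 in flox/flox glands, against 653, 695, 933 and 875 in flox/+ glands, a difference of -0.29 (95% interval -0.66 to 0.09). Sfrp4 varied most of all members, with an SD of 0.40 within genotypes. It read 361, 276, 226 and 238 in flox/flox glands, against 212, 215, 407 and 394 in flox/+ glands, so that the controls held 2 low and 2 high glands. Sfrp1 was at -0.10 and Sfrp5, a dim gene, at -0.20.

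The Dickkopf genes and Notum gave small differences. Dkk1, which blocks LRP5 and LRP6, was at 0.01 (95% interval -0.19 to 0.20), Dkk2 at -0.18 and Dkk3, a divergent family member, at -0.04. Notum, an enzyme that strips the lipid from WNT ligands, was at 0.06.

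Of the 7 measured factors and feedback targets, 4 had positive and 3 negative differences. Axin2, part of the complex that destroys beta-catenin and the most used reporter gene of the pathway, read 219.5, 253, 211 and 187 in flox/flox glands, against 227, 218, 166 and 187 in flox/+ glands. The genotypes overlapped, and the difference was 0.12 (95% interval -0.12 to 0.36). The other feedback genes were Nkd1 (-0.02) and Nkd2 (-0.18), which bind Dishevelled, and Sp5 (0.07), a transcription factor induced by the pathway.

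Among the TCF and LEF factors, Tcf7l1, which mostly represses its targets until beta-catenin arrives, had intensities of 340, 315, 362 and 301 in flox/flox glands, against 266, 276, 310 and 276 in flox/+ glands (probe set 10545458, chromosome 6). Flox/flox replicates 1 to 3 exceeded every control, and replicate 4 lay below flox/+ replicate 3. The log2 difference was 0.21 ± 0.08 (SE, 95% interval 0.04 to 0.39), with an adjusted limma p of 0.372. Tcf7l2, the widely expressed family member, was at 0.11 (95% interval -0.02 to 0.24) and had the smallest SD within genotypes of all members, 0.04.

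The promoters of Tcf7l1 and Axin2 are given as those of the factor with the smallest p and of the pathway's usual reporter. The Tcf7l1 window lies at chr6:72789046-72789295 on the minus strand and the Axin2 window at chr11:108920099-108920348 on the plus strand (RefSeq, GRCm38.p6), and neither holds the letters searched, so no capitals appear.
Tcf7l1: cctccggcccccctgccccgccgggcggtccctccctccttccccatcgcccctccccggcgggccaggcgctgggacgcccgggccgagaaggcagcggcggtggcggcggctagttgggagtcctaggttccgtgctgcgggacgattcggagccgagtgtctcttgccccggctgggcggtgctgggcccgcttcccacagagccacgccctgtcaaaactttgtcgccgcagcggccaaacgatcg
Axin2: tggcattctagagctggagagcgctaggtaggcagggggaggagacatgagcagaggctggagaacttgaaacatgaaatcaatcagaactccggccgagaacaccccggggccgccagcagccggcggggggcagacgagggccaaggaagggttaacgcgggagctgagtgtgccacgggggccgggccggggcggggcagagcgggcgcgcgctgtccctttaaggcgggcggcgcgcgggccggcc
The absence of these letters says nothing about sites elsewhere in the genes.

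Lef1, a factor that the mouse embryo needs to form mammary buds and that T cells also use, read 161, 149, 166 and 154 in flox/flox glands, against 166, 238, 168 and 175 in flox/+ glands. Flox/+ replicate 2 stood apart from the other 7 glands. The difference was -0.21 (95% interval -0.44 to 0.02). The summed intensity of 4 T cell markers (Cd3e, Cd3d, Cd3g and Cd2, 4 of the 5 listed) was 446 to 589 in flox/flox glands, against 422 to 431 in 3 of the flox/+ glands and 1010 in flox/+ replicate 2. The sum of 4 B cell markers (Cd79a, Cd79b, Ms4a1 and Cd22) was 366 to 429 in flox/flox glands, against 373 to 419 in those 3 flox/+ glands and 1990 in flox/+ replicate 2. No marker was at 0, and the part of lymphocytes in the Lef1 value was not tested.

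Several members described above ran high or low together in single glands, beside the fibroblast markers. The summed intensity of 6 fibroblast markers (Col1a1, Col1a2, Col3a1, Pdgfra, Dcn and Lum, all 6 measured) was 32428, 29078, 35005 and 34168 in flox/flox glands, against 32263, 36241, 41705 and 40534 in flox/+ glands. The sums overlapped between genotypes, and none of the 6 markers was at 0. Negative differences were seen for the matrix genes Col1a1 (-0.27), Col1a2 (-0.27), Col3a1 (-0.27) and Lum (-0.28), whereas the receptor gene Pdgfra (0.02) and the proteoglycan gene Dcn (0.00) lay at 0 within their error. Flox/+ replicates 3 and 4, with the highest fibroblast sums, also had the highest values of Wnt5a and Apcdd1 and of the Frizzled-related genes Sfrp1 and Sfrp4. Within each genotype Sfrp2 ranked the glands as the fibroblast sum did. Across genotypes Sfrp2 read 875 in flox/+ replicate 4 but 885 in flox/flox replicate 3, the flox/flox gland with the highest fibroblast sum. Some values of other members did not follow the order of the fibroblast sums. Wnt2, a stromal ligand, read 194 in flox/+ replicate 4 but 243 in flox/+ replicate 1. For Sfrp4 the flox/flox replicate 1 value of 361 came with a fibroblast sum of 32428. For Apcdd1 the flox/+ replicate 1 value of 702 came with a fibroblast sum of 32263, and the flox/flox replicate 4 value of 472 with one of 34168. The sum of 5 macrophage markers (Csf1r, Adgre1, Cd68, C1qa and C1qb) was also highest in flox/+ replicates 3 and 4, at 4437 and 4460. It was 2829 and 3336 in flox/+ replicates 1 and 2, and 2905 to 4034 in flox/flox glands. The part of stromal or macrophage content in these differences was not tested.

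**Figure D4:**
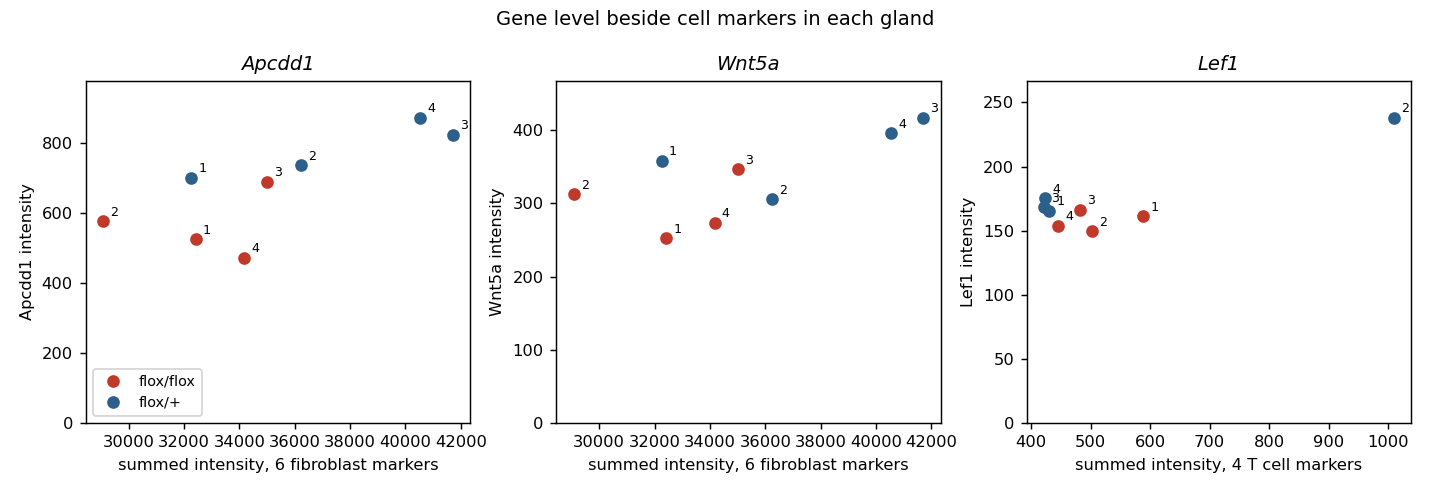
Intensity of Apcdd1, Wnt5a and Lef1 (y axes) against the summed intensity of cell markers in the same gland (x axes: 6 fibroblast markers for Apcdd1 and Wnt5a, 4 T cell markers for Lef1), flox/flox in red and flox/+ in blue, numbered by replicate. Flox/+ replicates 3 and 4 lie at upper right for Apcdd1 and Wnt5a, and flox/+ replicate 2, at 1010 on the T cell axis, stands alone for Lef1.

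Epithelial markers were plentiful in both genotypes. The sum of 8 luminal markers, among them the keratins Krt8, Krt18 and Krt19, was 10122 to 12805 in flox/flox glands, against 10354 to 12800 in flox/+ glands. The sum of 7 basal and myoepithelial markers was 7696 to 10463 in flox/flox glands, against 7629 to 8835 in flox/+ glands. The 7 were Krt5, Krt14, Krt17, Trp63, Oxtr, Acta2 and Myh11, and Acta2 read highest, at 3930 to 5352 in single glands. Krt5 read 758 to 1529 and Trp63 191 to 273, so Acta2 contributed most to the sum. Both ranges overlapped. Differences were negative for 7 of the 8 luminal markers and for 3 of the 7 basal and myoepithelial markers. Among the luminal markers they lay between -0.16 (Elf3) and 0.11 (Cldn3). The sum of 4 proliferation markers (Mki67, Top2a, Cdk1 and Bub1) did not overlap. It was 686 to 941 in flox/flox glands, against 1028 to 1232 in flox/+ glands. All 4 had negative differences, between -0.68 (Top2a) and -0.42 (Cdk1). Mki67 (-0.64) had an adjusted limma p of 0.0857, the smallest among the markers named here. The sum of 5 keratinocyte and hair follicle markers (Krt10, Krt1, Lor, Krt25 and Krt71) did not overlap either, at 806 to 888 in flox/flox glands, against 918 to 1018 in flox/+ glands, with negative differences for 4 of the 5. Krt1 contributed most to this sum, at 463 to 581 in single glands, with a difference of -0.18 and an adjusted limma p of 0.377. Lor was at 0.05. The sum of 4 brown adipocyte markers (Ucp1, Cidea, Elovl3 and Cox7a1) overlapped, at 4811 to 9554 in flox/flox glands, against 3174 to 6806 in flox/+ glands, with positive differences for all 4 and the highest for Elovl3 (1.94, adjusted limma p of 0.212). None of these markers passed the test, and their part in the WNT values was not tested.

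**Figure D5:**
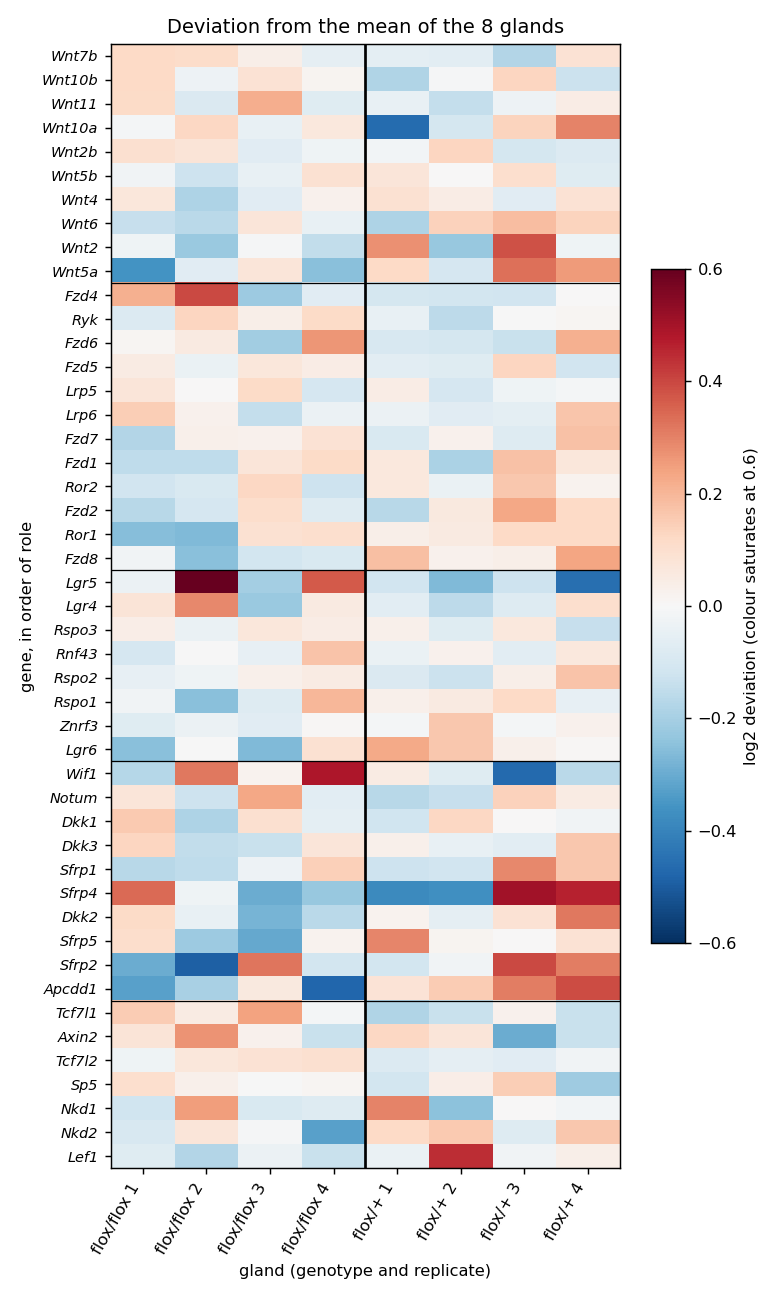
Log2 deviation of each of 47 WNT pathway genes (rows, in order of role) from its own mean over the 8 glands (columns, flox/flox replicates 1 to 4, then flox/+ replicates 1 to 4); red is above and blue below the mean. Lgr5 and Wif1 are reddest in flox/flox replicates 2 and 4, Lef1 in flox/+ replicate 2, and Sfrp4 and Apcdd1 in flox/+ replicates 3 and 4. Apcdd1 is above its mean in every flox/+ gland and in flox/flox replicate 3, and Sfrp4 also in flox/flox replicate 1.

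The remaining pathway was read through 5 further lists with 116 measured genes, of which 0 passed limma's test; at an unadjusted p under 0.05 there were 16 (13.8%), 7 higher and 9 lower, against 10.3% of all genes. Of 27 other ligands, receptors, inhibitors and co-factors, 6 had positive and 21 negative differences, with a median of -0.04. Over all genes 52.6% of differences were negative. At an unadjusted p under 0.05 there were 3 (11.1%). Gpc6, a glypican of the cell surface, had intensities of 565, 410, 446 and 483 in flox/flox glands, against 302, 330, 349 and 342 in flox/+ glands, without overlap. Its log2 difference was 0.50 ± 0.10 (SE), with an adjusted limma p of 0.122. The other two were Dkkl1 (-0.45), a relative of the Dickkopf genes, and Rspo4 (-0.19), a dim R-spondin.

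Of 41 genes that carry the signal inside the cell or help to secrete WNT, 24 had positive and 17 negative differences, with a median of 0.01. At an unadjusted p under 0.05 there were 5 (12.2%). Pygo1, a co-activator of beta-catenin, averaged 245 ± 7.77 in flox/flox glands, against 294 ± 24.6 in flox/+ glands (SD, n = 4 each), a difference of -0.24. Tle5, a short relative of the Groucho co-repressors, was at 0.26, and Axin1, the scaffold of the destruction complex, at 0.15. Of 19 measured planar polarity genes none had an unadjusted p under 0.05.

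Genes often used as WNT targets or induced regulators gave 23 measured of 27 listed symbols, of which Wisp1, Wisp2 and Cyr61 are older names of Ccn4, Ccn5 and Ccn1. At an unadjusted p under 0.05 there were 7 (30.4%, against 10.3% of all genes), 4 higher and 3 lower, and the median difference was 0.02. The list was chosen with earlier results of these data known, so this share is only a description. The 3 genes with the smallest p, named next, were all higher, and the 3 lower genes are not named. Dact1, which binds Dishevelled, read 206, 172, 172 and 167 in flox/flox glands, against 129, 136, 121 and 149 in flox/+ glands, with a difference of 0.38 ± 0.08 (SE) and an adjusted limma p of 0.180. Its relative Dact2 read 218, 232, 256 and 250 in flox/flox glands, against 195, 204, 197 and 189 in flox/+ glands, a difference of 0.26. For both genes each flox/flox gland lay above each flox/+ gland. Nrcam, a cell adhesion gene and a dim one here, was at 0.55.

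Of 6 measured genes of the hormone-sensing luminal cells, which make Wnt4, 1 had an unadjusted p under 0.05 (16.7%, against 10.3% of all genes). Differences were negative for 5 of the 6 and positive for 1, with a median of -0.09, where 52.6% of all genes had negative ones. Gata3, a factor of luminal identity, had intensities of 631, 842, 678 and 1046 in flox/flox glands, against 1188, 1047, 1062 and 1116 in flox/+ glands. Flox/flox replicate 4 lay just below the lowest control, and the genotypes did not overlap, which held for 5.9% of all genes. The log2 difference was -0.48 ± 0.14 (SE), with an adjusted limma p of 0.259, while the progesterone receptor gene Pgr was at -0.03 ± 0.26 (SE).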

How the data were processed

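The deposited table gives intensity per probe set, linear and not logged, which the authors summarised by PLIER, with Expression Console 1.0 of Affymetrix according to the submitters' processing notes; their background correction and any scaling between arrays are not stated there. The table holds 35557 probe sets without detection calls, and each column matched a sample identifier (0 columns were unmatched). A single gene symbol was paired with 21789 probe sets, several with 1621 and none with 12147.

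Values were offset by 16, taken to log2 and quantile normalized over all probe sets; printed intensities are these values with log and offset undone. Genotypes were tested by lmFit and eBayes (limma 3.58.1, R 4.3.3), with Benjamini-Hochberg adjustment over all 19938 genes and a threshold of 0.05. Levels are means with SD, and differences carry limma's SE and 95% intervals. The number of arrays limits the precision. Scripts were tested on simulated arrays.

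The members and lists were chosen with earlier results of these data known. Values in every gland are given for members with an unadjusted p under 0.05 or no overlap, for Wnt4, Wnt5a, Wnt10b, Rspo1, Lgr5, Axin2 and Lef1, and for Ror1, Fzd4, Sfrp2, Sfrp4 and Wif1, which were chosen after their values were seen. Other lists name up to 3 genes with the smallest unadjusted p under 0.05; Pgr was added after its value was seen. Alternatives were other normalizations, offsets of 1 and 64, no dim genes, all probe sets, means over probe sets, eBayes options, array weights, the replicate number as a block, a threshold of 0.1 and each array left out.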

Additional observations from a re-analysis of the deposited data

Results flagged for a closer look

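Of 116 genotype groups of 4 glands checked (58 genes, members and other named genes), 9 held a gland far from the other 3, where chance alone gives about 1 in 20. Among control glands, flox/+ replicate 4 stood high for Fzd4 (1420, the others 1310 to 1320), Fzd6 (454, the others 353 to 364) and Lrp6 (1140, the others 966 to 988). In flox/+ replicate 2 Lef1 stood high (238, the others 166 to 175), as did the beta-catenin co-activator Pygo1 (330, the others 279 to 284), and in flox/+ replicate 1 Wnt6 stood low (193, the others 245 to 255). Among flox/flox glands, Ror2 stood high in replicate 3 (344, the others 287 to 294), Nkd1 in replicate 2 (189, the others 143 to 148) and Dact1 in replicate 1 (206, the others 167 to 172).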

How the results depend on the processing

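No member passed limma's adjusted threshold in any of the 19 alternatives, including the threshold of 0.1, where the smallest adjusted p was 0.214 (Apcdd1), and the fit without flox/flox replicate 3, where it was 0.0857. At an unadjusted p under 0.05 there were 4 to 8 members over all alternatives. The signs of the 6 members with the smallest p held in each alternative, but their unadjusted p did not always stay under 0.05. With arrays left out it did so in 8 of 8 fits for Fzd8 and Apcdd1 and in 6 for Tcf7l1. For Wnt5a, Lgr5 and Lgr6 it did so in 4 of 8 fits. In the 11 other alternatives Lgr6 kept it in 6 and the other members named here in all 11. The number of genes called was 18 with median centring, 4 with an offset of 1, 19 with an offset of 64, 3 without the dimmest 1 in 3 genes, 1 with all probe sets tested, 17 with eBayes trend and robust options, 25 at a threshold of 0.1, and 2 to 19 with arrays left out (2 without flox/flox replicate 4 or flox/+ replicate 4, 4 without flox/flox replicate 1 or flox/+ replicate 1, 19 without flox/flox replicate 3). Members without overlap numbered 5 with the deposited values (Fzd8, Apcdd1, Lef1, Tcf7l1 and Tcf7l2), 1 (Apcdd1) with median centring and 2 to 6 with arrays left out, where fewer arrays make overlap less likely (6 without flox/flox replicate 3, 5 without flox/flox replicate 4 or flox/+ replicate 3, 4 without flox/flox replicate 1, flox/+ replicate 1 or flox/+ replicate 4). The Sox9 difference was -0.29 with the deposited values (exact permutation p = 0.0857), -0.30 with median centring (0.0571) and -0.38 to -0.28 with arrays left out, with p = 0.0571 without any 1 of flox/flox replicates 1 and 3 and flox/+ replicates 1 and 2. Causes were not tested.

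With the replicate number as a block 8 members had an unadjusted p under 0.05, Sfrp2, Sfrp5 and Wif1 being added and Lgr6 lost (p of 0.0631 in limma), as were Rspo4 (0.0591) and Axin1 (0.0565) among the other named genes. No member and again 8 genes passed the adjusted threshold. The labels do not say that the numbers pair the mice: deviations of same-numbered glands correlated between -0.204 and 0.209, and 1 of 4 flox/flox glands correlated best with its own number.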
